A study of Homo sapiens with 24 samples.

Results

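Genes of the Hippo output pathway are described here across 3 histone marks in PANC-1 cells, a human line derived from a pancreatic ductal carcinoma. They were chosen by function and by no measured value, though with earlier results of these data known, as 10 of the 19794 protein-coding genes of the annotation. They are the coactivators YAP1 and WWTR1 (the gene for TAZ), the DNA-binding partners TEAD1, TEAD2, TEAD3 and TEAD4, and the target genes CCN1 (also known as CYR61), CCN2 (CTGF), ANKRD1 and AXL. For each gene, the base pairs (bp) covered by peaks were summed within 5 kb of its protein-coding transcription start sites (TSSs), and H3K27ac peaks were followed out to 100 kb. The ChIP-seq peaks came from 18 lists, 2 libraries for each of 3 marks in 3 groups. Cells labelled siControl received a control siRNA and no TGFb. Cells labelled siControl+TGFb received the same siRNA and 10 ng/ml TGFb for 48 hours. Cells labelled siPHF13+TGFb received an siRNA against PHF13, a PHD finger protein known to bind H3K4me3, and the same TGFb. No group analysed here combined the PHF13 siRNA with no TGFb, so depletion was compared only in the presence of TGFb. The siRNAs were delivered transiently into 1 cell line, and no source used here says that the libraries of a group came from separate cultures, so each test measures only the spread between libraries, which may be technical.

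The Hippo pathway is a kinase cascade in which STK3 and STK4 activate LATS1 and LATS2, and the LATS kinases phosphorylate YAP and TAZ and keep them out of the nucleus. In the nucleus YAP and TAZ do not bind DNA themselves. They are held on promoters and enhancers by TEAD proteins, which recognise the letters GGAATG, which read as CATTCC on the other strand, and they are known for driving growth, matrix and motility genes in ductal carcinoma cells. H3K4me3 is a mark of gene starts, H3K27ac of active promoters and enhancers, and H3K27me3 of Polycomb-silenced chromatin.

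Peaks were called separately in each library, so covered bp moved with how much was called. The H3K27ac list of siPHF13+TGFb replicate 1 stood apart, with 6004 peaks over 1.89 Mb, where the other 5 H3K27ac lists held 19413 to 36104 peaks over 11.02 to 31.9 Mb. The same library was also the shortest list for H3K4me3 (24.9 Mb, others 29.3 to 41.1 Mb) and for H3K27me3 (48.6 Mb, others 105 to 293 Mb). The study's own peak total for this library is higher than the deposited list in every mark. The main counts on depletion are therefore given with and without it. The siControl+TGFb lists were longer than the siControl lists for H3K27ac (31.9 and 18.8 Mb against 11.02 and 17.2 Mb), and the part of list length in the differences below was not tested beyond the scalings given. The names inside the peak files carry a group code that goes against the labels for the TGFb-treated groups. The labels were followed, and every result on a TGFb-treated group, in both comparisons, holds only if they are right. H3K4me3 was found at 7 of 7 ductal markers, in all 6 lists at 6 of them and at KRT7 in 1 list, and H3K27ac at 6 of 7. The acinar markers (0 of 5) and the endothelial markers (0 of 2) had no H3K4me3 peak, while 1 of 4 endocrine and 2 of 4 leukocyte markers had one (CD14 in all 6 lists), and none of these 4 groups had H3K27ac.

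The bases just upstream of the start are shown for the 3 target genes known best as TEAD targets and for AXL as a target without the letters. They are read 5′ to 3′ on the gene's strand of the GRCh37 (hg19) genome, from chr1:86046194-86046443 (CCN1, plus strand), chr6:132272513-132272762 (CCN2, minus), chr10:92680845-92681094 (ANKRD1, minus) and chr19:41724878-41725127 (AXL, plus). Capitals mark the TEAD letters GGAATG or CATTCC and, in ANKRD1, the AP-1 letters TGANTCA, both searched on either strand.
CCN1: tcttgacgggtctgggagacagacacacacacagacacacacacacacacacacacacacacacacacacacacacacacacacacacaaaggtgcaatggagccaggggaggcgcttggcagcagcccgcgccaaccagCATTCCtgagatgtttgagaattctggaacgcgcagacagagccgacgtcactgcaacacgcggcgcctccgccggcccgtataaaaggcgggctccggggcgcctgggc
CCN2: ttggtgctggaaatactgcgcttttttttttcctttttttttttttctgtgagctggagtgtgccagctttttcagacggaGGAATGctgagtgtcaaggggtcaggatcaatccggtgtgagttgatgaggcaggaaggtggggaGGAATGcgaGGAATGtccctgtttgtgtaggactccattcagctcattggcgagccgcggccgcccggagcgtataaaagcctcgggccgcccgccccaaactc
ANKRD1: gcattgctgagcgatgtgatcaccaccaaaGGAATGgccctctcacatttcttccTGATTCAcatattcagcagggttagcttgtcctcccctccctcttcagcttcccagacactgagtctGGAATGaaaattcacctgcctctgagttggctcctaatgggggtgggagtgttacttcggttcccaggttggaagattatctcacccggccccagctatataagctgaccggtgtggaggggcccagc
AXL: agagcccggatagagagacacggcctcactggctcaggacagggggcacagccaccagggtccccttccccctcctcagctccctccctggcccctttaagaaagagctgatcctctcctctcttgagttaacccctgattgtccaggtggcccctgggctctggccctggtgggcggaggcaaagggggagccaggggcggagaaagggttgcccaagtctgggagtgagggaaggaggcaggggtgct

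CCN2 held 3 matches, which ended 163, 98 and 89 bases before its start. ANKRD1 held 2, ending 214 and 122 bases before the start, with AP-1 letters ending 188 bases before it. CCN1 held 1, ending 104 bases before the start. In windows from 250 bases upstream to 50 downstream, the TEAD letters were in 6 of the 10 genes, against 11.3% of all 19794. The 6 were YAP1, TEAD1, TEAD4, CCN1, CCN2 and ANKRD1, and TEAD4 held 3 matches, as did CCN2. The AP-1 letters were in 1 of the 10, against 5.44% of all promoters. A match of letters is a description of the sequence and not a binding site.

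YAP1 (chromosome 11, 101981178 to 102104155, plus strand) carried both H3K4me3 and H3K27ac in all 6 lists of each mark. Its H3K4me3 covered 3306 and 3219 bp in siControl, against 3471 and 3445 bp in siControl+TGFb and 3053 and 3286 bp in siPHF13+TGFb. Its H3K27ac covered 2690 and 2761 bp in siControl, against 3217 and 3099 bp in siControl+TGFb and 543 and 2973 bp in siPHF13+TGFb. For both marks the siControl+TGFb libraries were above all 4 others, and the value of 543 bp came from the short list of siPHF13+TGFb replicate 1. Both marks lay over the canonical start, and the window of its other start was without either mark in all 6 lists.

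WWTR1 (chromosome 3, 149235022 to 149454501, minus strand), whose product TAZ is the paralog of YAP, had starts in 4 windows, the most of the 10 genes. Its H3K4me3 covered 4100 and 4654 bp in siControl, against 6691 and 4922 bp in siControl+TGFb and 3952 and 4632 bp in siPHF13+TGFb. Its H3K27ac covered 2819 and 4938 bp, then 7635 and 4475 bp, then 168 and 5603 bp in the same order. H3K27ac overlapped between siControl and siControl+TGFb, and H3K4me3 did not. The windows differed from each other. At the canonical start, H3K4me3 covered 2796 to 4259 bp over the 6 lists. At the start inside the gene at position 149294039, H3K4me3 was at 0 in 3 lists and at 168, 1141 and 171 bp in the others (siControl replicate 2, then siControl+TGFb replicates 1 and 2), yet H3K27ac covered 879 and 2168 bp in siControl, against 3411 and 1461 bp in siControl+TGFb and 0 and 2390 bp in siPHF13+TGFb. That start thus had more H3K27ac than H3K4me3 in each list that had either mark.

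Among the TEAD genes, H3K4me3 was present in all 6 lists at each of the 4, while H3K27ac ranged from broad to nearly none. TEAD1 (chromosome 11, 12695968 to 12966284, plus strand) had 508 and 1352 bp of H3K27ac in siControl, 2095 and 1548 bp in siControl+TGFb, and 0 and 2017 bp in siPHF13+TGFb. TEAD4 (chromosome 12, 3068496 to 3149842, plus strand) had 1266 and 1295 bp, then 2150 and 1586 bp, then 190 and 1945 bp. At both genes the siControl+TGFb libraries lay above the siControl libraries without overlap. TEAD3 (chromosome 6, 35441374 to 35464856, minus strand) had 237 and 580 bp in siControl, against 1360 and 771 bp in siControl+TGFb and 0 and 1461 bp in siPHF13+TGFb. TEAD2 (chromosome 19, 49843852 to 49865714, minus strand), whose window also holds the start of DKKL1, had the least, with 0 and 427 bp, then 1097 and 426 bp, then 0 and 1364 bp. TEAD3 was higher with TGFb without overlap, and TEAD2 overlapped by 1 bp. H3K4me3 at TEAD3 was nearly level, from 1878 to 2257 bp over the 6 lists. At TEAD1 it was 2371 to 2969 bp, at TEAD2 1756 to 2381 bp and at TEAD4 1861 to 2985 bp, with siPHF13+TGFb replicate 1 lowest at TEAD1 and TEAD2 and siControl replicate 1 lowest at TEAD4.

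The matricellular genes CCN1 and CCN2 are the usual readouts of YAP activity. At CCN1 (chromosome 1, 86046444 to 86050272, plus strand; its window also holds a start of DDAH1), H3K27ac covered 2040 and 4382 bp in siControl, against 6044 and 4561 bp in siControl+TGFb and 322 and 5295 bp in siPHF13+TGFb. At CCN2 (chromosome 6, 132269316 to 132272512, minus strand) it covered 278 and 1030 bp, then 2142 and 1506 bp, then 161 and 1938 bp. At both genes, siControl+TGFb did not overlap siControl, and siPHF13+TGFb replicate 2 lay within the siControl+TGFb range while replicate 1 lay below all other libraries. H3K4me3 at CCN1 covered 3869 and 4677 bp, then 5144 and 4328 bp, then 2834 and 4765 bp, so the TGFb comparison overlapped. At CCN2 it covered 2308 and 2634 bp, then 2663 and 2506 bp, then 1800 and 2439 bp.

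AXL (chromosome 19, 41725128 to 41767671, plus strand), a receptor tyrosine kinase linked to mesenchymal states, had 347 and 1738 bp of H3K27ac in siControl, 3923 and 936 bp in siControl+TGFb, and 0 and 3523 bp in siPHF13+TGFb. Both TGFb-treated groups had 1 high and 1 low library. Its H3K4me3 was 1845 and 2652 bp, then 2956 and 2891 bp, then 1652 and 2610 bp, highest in both siControl+TGFb libraries. ANKRD1 (chromosome 10, 92671853 to 92680844, minus strand), a nuclear ankyrin-repeat protein of muscle and of YAP-active cells, stood apart from the other 9 genes. It had no H3K27ac in any list, and H3K4me3 only in siControl+TGFb, with 320 and 292 bp.

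**Figure D1:**
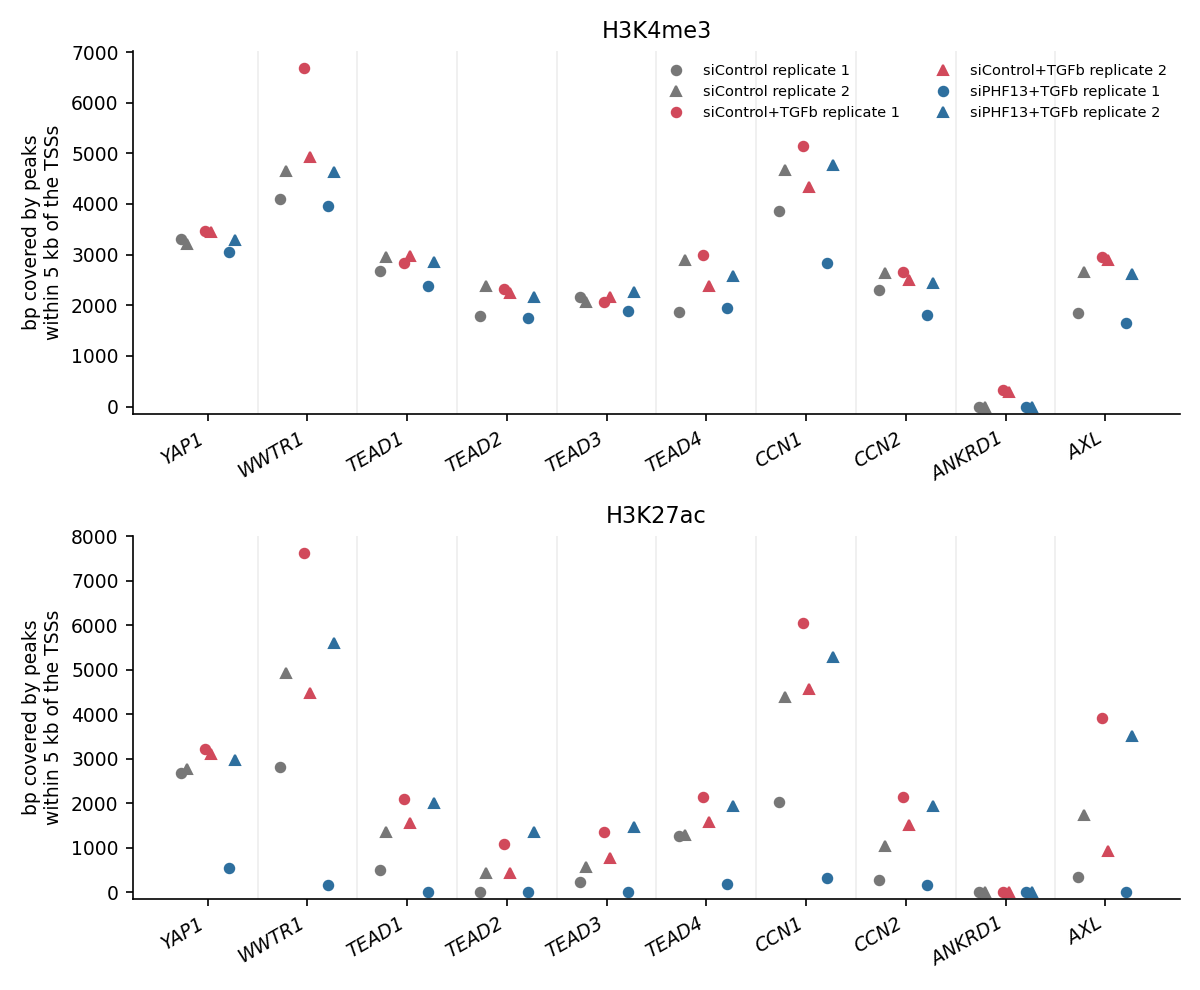
Base pairs covered by H3K4me3 and H3K27ac peaks in the TSS windows of the 10 genes, with 1 point for each library, coloured by group. ANKRD1 lies at 0 for H3K27ac in all 6 lists, and the lowest H3K27ac point of the other genes is siPHF13+TGFb replicate 1 (at TEAD2 together with siControl replicate 1, also at 0).

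The first comparison asked how TGFb changed these genes in cells labelled with the control siRNA. H3K27ac was higher in both siControl+TGFb libraries than in both siControl libraries at 6 of the 9 genes with a peak (YAP1, TEAD1, TEAD3, TEAD4, CCN1 and CCN2) and lower at 0, against 53.3% of 12794 genes higher and 0.0547% lower. Their median difference was 1.02 on the log2(bp + 100) scale, against 0.59 over all genes with H3K27ac. The differences were 1.79 at TEAD2, 1.54 at CCN2, 1.24 at TEAD3, 1.17 at AXL, 1.02 at TEAD1, 0.79 at CCN1, 0.63 at WWTR1, 0.50 at TEAD4 and 0.21 at YAP1. With a standard error of 1.48 for each, limma called 0 of the 9 (adjusted p = 0.998 for each). It also called 0 of the 12794 genes (0% called), with 97 genes at an unadjusted p under 0.05 and no other tool run. The standard error was drawn from all 3 groups, the short list of siPHF13+TGFb replicate 1 included. No fit of this comparison left that list out, so the error is not the spread of siControl and siControl+TGFb alone. The log2 scale gives low genes such as TEAD2 and CCN2 large differences for short stretches. The middle 50% of all genes lay between 0.33 and 1.02, which holds TEAD1, CCN1, WWTR1 and TEAD4, while TEAD2, CCN2, TEAD3 and AXL lay above it and YAP1 below. Centring each library on its median turned YAP1 to -0.40 and TEAD4 to -0.11.

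H3K4me3 was higher with TGFb without overlap at 4 of the 10 genes (YAP1, WWTR1, ANKRD1 and AXL) and lower at 0, against 46.5% of 15417 genes higher and 2.06% lower. The median difference was 0.14, near the 0.12 over all genes, and ran from about 0 at TEAD3 to 0.39 at WWTR1 and AXL, apart from ANKRD1. The H3K4me3 share was thus near that of all genes, and the H3K27ac share not far above it. An exact two-sided permutation test of 2 libraries against 2 cannot go below p = 0.333, so single values were judged by the fit over all genes. Without siControl+TGFb replicate 2 the genes higher in H3K4me3 numbered 7, against 71.1% of all genes, and without siControl replicate 2 they numbered 9, against 74.6%.

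**Figure D2:**
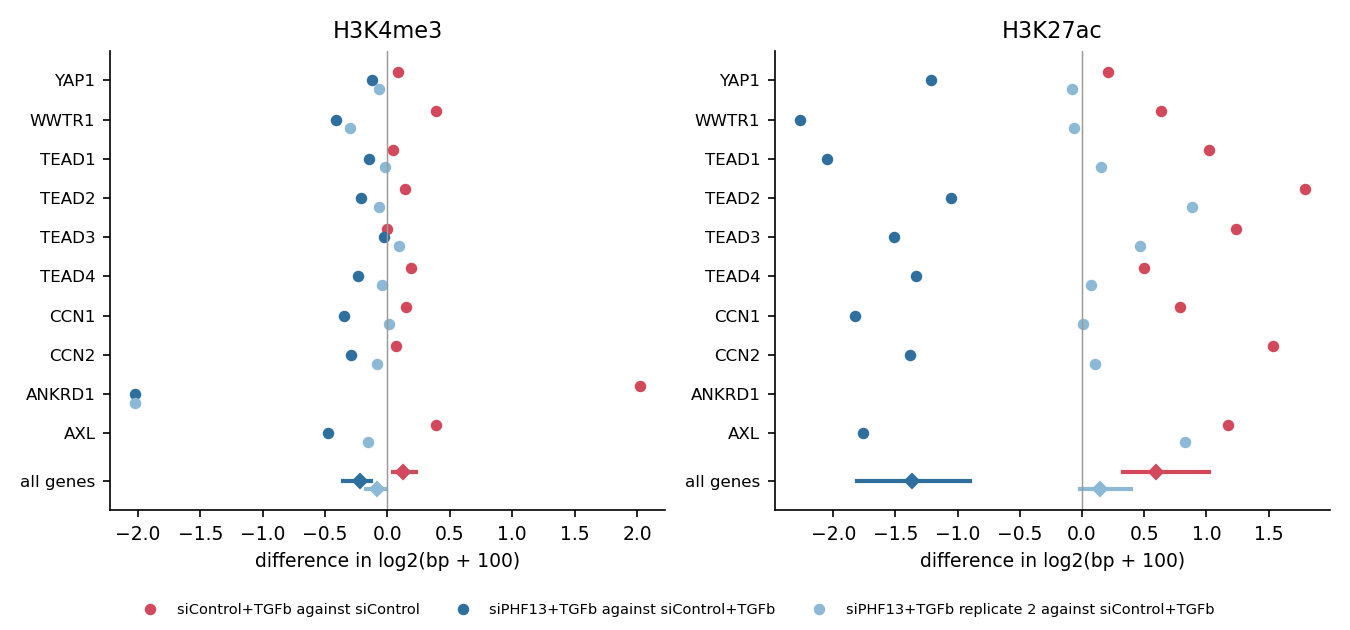
Difference in covered bp on the log2(bp + 100) scale for each gene and mark with TGFb and with PHF13 depletion, beside the spread over all genes with a peak of that mark. For H3K27ac with TGFb, TEAD2 (1.79) and CCN2 (1.54) lie above the middle 50% of all genes and YAP1 (0.21) below it.

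ANKRD1 was the only one of the 10 genes past the threshold of an adjusted p of 0.05, for H3K4me3 and in both comparisons (limma, adjusted p = 0.0131 for each). H3K4me3 there covered 320 and 292 bp in siControl+TGFb and 0 bp in the 4 other lists, so no fold is given. It entered the test only through siControl+TGFb, and the 4 libraries at 0 have no spread, which makes its standard error small (0.081). Limma called 0.0973% of the 15417 genes with TGFb (15 higher and 0 lower) and 0.136% with depletion (1 higher and 20 lower). Both peaks were weak. They ranked in the top 90.3% and 93.7% of their lists by the −log10 q-value that the peak caller gave, at 3.71 and 2.88, with summits 1211 and 1004 bp downstream of the start. The call was lost when only peaks with a −log10 q of at least 3 were kept (limma, adjusted p = 0.873 with TGFb and 0.419 with depletion). That is the cutoff the study states for this mark, and it removes the peak of siControl+TGFb replicate 2. No H3K4me3 peak was left at ANKRD1 when all lists were cut to equal length. The call was also lost with a term for the replicate number in the fit (limma, adjusted p = 0.131 with TGFb and 0.128 with depletion). With 1 library left out, the adjusted p was 0.0344 without siControl+TGFb replicate 2 and from 0.0503 to 0.103 without any other.

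The second comparison asked how depletion of PHF13 changed the same genes in TGFb-treated cells. H3K4me3 was lower without overlap at 6 of the 10 (YAP1, WWTR1, TEAD2, CCN2, ANKRD1 and AXL) and higher at 0, against 60.7% of all genes lower and 0.292% higher. The median difference was -0.26, against -0.22 over all genes. Without siPHF13+TGFb replicate 1 it was -0.07 against -0.09, with 6 lower and 1 higher, against 62.1% and 10.4% of all genes. The differences were therefore small, and the share that was lower was that of genes at large.

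H3K27ac separated the groups at fewer genes. It was lower without overlap at 1 of the 9 (YAP1) and higher at 0, against 10.0% of all genes lower and 0.0156% higher. The median difference was -1.51, against -1.37 over all genes, and limma called 0 of the 9 and 0 of 12794 genes (0% called; adjusted p from 0.704 to 0.707 for the 9, and 11 genes at an unadjusted p under 0.05). These values rested on siPHF13+TGFb replicate 1. With replicate 2 alone the median was 0.10, against 0.14 over all genes, with YAP1 lower and TEAD2 and TEAD3 higher, against 10.0% of all genes lower and 29.3% higher. Replicate 2 alone gave -0.08 at YAP1, -0.06 at WWTR1, 0.01 at CCN1, 0.07 at TEAD4, 0.10 at CCN2, 0.15 at TEAD1, 0.47 at TEAD3, 0.83 at AXL and 0.88 at TEAD2. With replicate 1 alone, taken to vary like the other groups, the median was -3.50 and 7 of the 9 passed the threshold in the lower direction, as did 9115 of all genes. Without siControl+TGFb replicate 2, 7 of the 9 were lower without overlap, against 69.3% of all genes. The sign of the median thus depended on which library stood for the group.

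Peaks were also ranked within their list. A rank of 10% means that the strongest peak of a gene lay in the top 10% of its list by −log10 q. The strongest peak in any window of a gene was taken, so a gene with more windows, such as WWTR1 with 4, had more chances of a high rank. The H3K4me3 peak taken for CCN1 in siControl replicate 1 had its summit at -3211 bp from the start. In siControl+TGFb, the H3K27ac peak of YAP1 ranked at 7.47% and 7.48%, the highest of the 10. TEAD4 followed at 15.0% and 15.2%, TEAD1 at 15.0% and 13.1%, and WWTR1 at 15.6% and 17.7%, so TEAD4 and TEAD1 overlapped and WWTR1 came next. CCN1 stood at 26.5% and 29.6%, CCN2 at 34.7% and 39.1%, TEAD3 at 39.8% and 43.7%, AXL at 36.8% and 57.9%, and TEAD2 at 46.4% and 84.7%. The libraries of AXL lay so far apart that AXL overlapped with CCN2, TEAD3 and TEAD2. By −log10 q in siControl+TGFb, the coactivator genes and 2 of the TEAD genes thus ranked above the 4 target genes, ANKRD1 having no peak.

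The ranks of the other groups came from lists of 6004 to 36104 peaks, so a percent does not mean the same in each list and no change between groups is read from it. YAP1 stood at 15.3% and 9.15% in siControl, beside 7.47% and 7.48% in siControl+TGFb, and at 35.1% and 6.26% in siPHF13+TGFb. CCN1 stood at 38.2% and 38.9% in siControl and at 94.2% and 30.01% in siPHF13+TGFb, and CCN2 at 63.6% and 46.5%, then at 92.9% and 35.9%. TEAD1 stood at 41.2% and 29.1% in siControl and at 26.2% in siPHF13+TGFb replicate 2, with no peak in replicate 1. The median H3K27ac rank over all genes with a peak differed between lists as well, at 32.8% and 27.1% in siControl, then 21.3% and 27.2% in siControl+TGFb and 47.3% and 23.2% in siPHF13+TGFb. For H3K4me3 the order was another, with TEAD3 highest in 4 of the 6 lists, at 11% to 22%. TEAD1 was ahead of it in siControl+TGFb replicate 2 (19.6% against 23.1%) and CCN1 in siPHF13+TGFb replicate 2 (19.3% against 19.8%). YAP1, in contrast, ranked at 20.9% to 36.0% for H3K4me3.

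**Figure D3:**
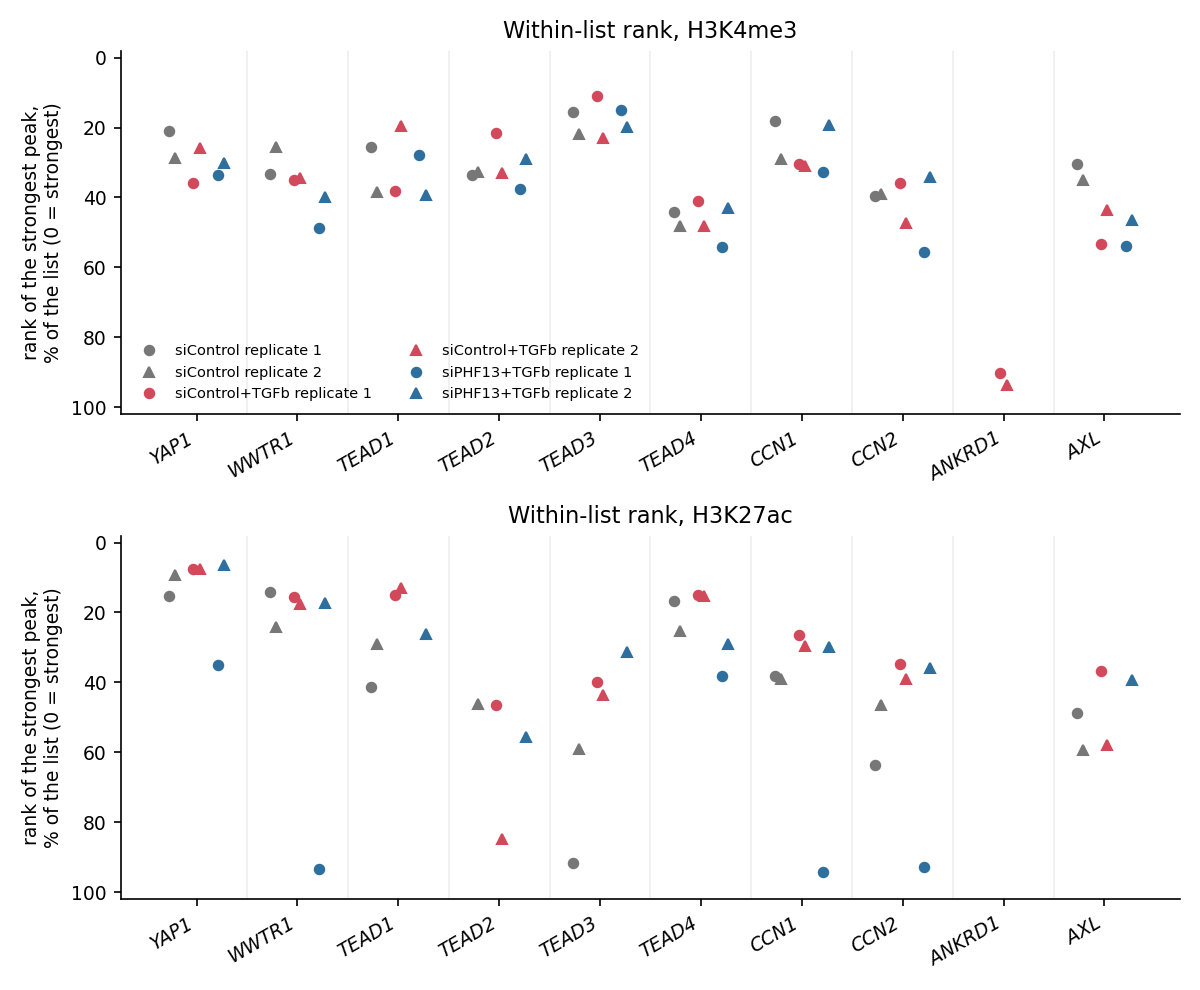
Rank of the strongest peak of each gene within its list, as top percent by −log10 q, for H3K4me3 and H3K27ac in each of the 6 libraries. YAP1 has the H3K27ac peak that ranks highest in siControl+TGFb (7.47% and 7.48%), and siPHF13+TGFb replicate 1 ranks CCN1, CCN2 and WWTR1 past 90%.

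Beyond the starts, 122 merged H3K27ac regions lay within 100 kb of the 10 genes, of 39923 in all. They comprised 28 in the TSS windows, 20 at promoters of other genes and 74 distal regions. Distal means only more than 5 kb from any protein-coding start. An H3K4me3 peak overlapped 41 of the 74 distal regions in at least 1 list. WWTR1 had 46 of the 122 regions, CCN1 19, TEAD1 11, YAP1, TEAD2 and AXL 10 each, CCN2 6, TEAD3 and TEAD4 4 each, and ANKRD1 2, both at promoters of other genes (HTR7 and RPP30). The regions with a peak numbered 40 and 58 in siControl, 104 and 60 in siControl+TGFb, and 14 and 87 in siPHF13+TGFb, and 14 regions had a peak in all 6 lists. The 60 and 58 regions of siControl+TGFb and siControl replicates 2 were nearly equal, and the count of 104 came from the longest list.

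With TGFb, 10 of the 122 regions (8.20%) had a peak in both siControl+TGFb libraries and in neither siControl library, against 7.57% of all 39923 regions. The reverse was found for 0 of the 122, against 0.115% of all regions. The gained regions lay within 100 kb of CCN1 (4), WWTR1 (4), YAP1 (1) and TEAD2 (1), and 9 of them were distal. All 10 had a peak in siPHF13+TGFb replicate 2 and none had one in replicate 1. Of all 3023 regions gained with TGFb, 729 were absent from both siPHF13+TGFb libraries, so most gained regions kept a peak in at least 1 of them. Without siControl+TGFb replicate 2 the gained regions numbered 48, against 33.6% of all regions, and without siControl replicate 2 they numbered 20, against 16.8%. With lists cut to equal length, 2 of 22 regions were gained and 2 were lost, against 4.49% and 3.34% of 9586.

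CCN1 had the widest gained region. It spanned 2405 bp at chr1:85960220-85962624, with its summit at -85468 bp from the CCN1 start (negative values are upstream), in an intron of DDAH1 that also holds an exon of a long noncoding RNA. It was covered over 0 and 0 bp in siControl, against 2243 and 1813 bp in siControl+TGFb and 0 and 1707 bp in siPHF13+TGFb. The other 3 gained regions at CCN1 had summits at -54751, -29560 and 18294 bp from the start. They were covered over 1706 and 1288 bp, then 1518 and 1051 bp, then 1321 and 154 bp in the siControl+TGFb libraries, and over 1006, 181 and 665 bp in siPHF13+TGFb replicate 2. By contrast, a pair of distal regions 27072 and 48418 bp downstream was present in all 6 lists. The nearer was covered over 1726 and 1877 bp in siControl, against 2572 and 2423 bp in siControl+TGFb and 794 and 2216 bp in siPHF13+TGFb. The farther was covered over 2494 and 2633 bp, then 2872 and 2900 bp, then 1302 and 2673 bp. Standing regions lay upstream as well. A region in the TSS window, centred at -3557 bp from the CCN1 start, had a peak in all 6 lists. Another, centred at -59324 bp, had a peak in 5 lists, with 256 and 809 bp in siControl. Of the 4 regions gained with TGFb, 3 were upstream. These 3 gained regions lay 83820, 53100 and 28872 bp from the CCN1 start. Each was nearer to a start of DDAH1, at 29378, 50702 and 26474 bp, and a link to either gene was not tested.

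**Figure D4:**
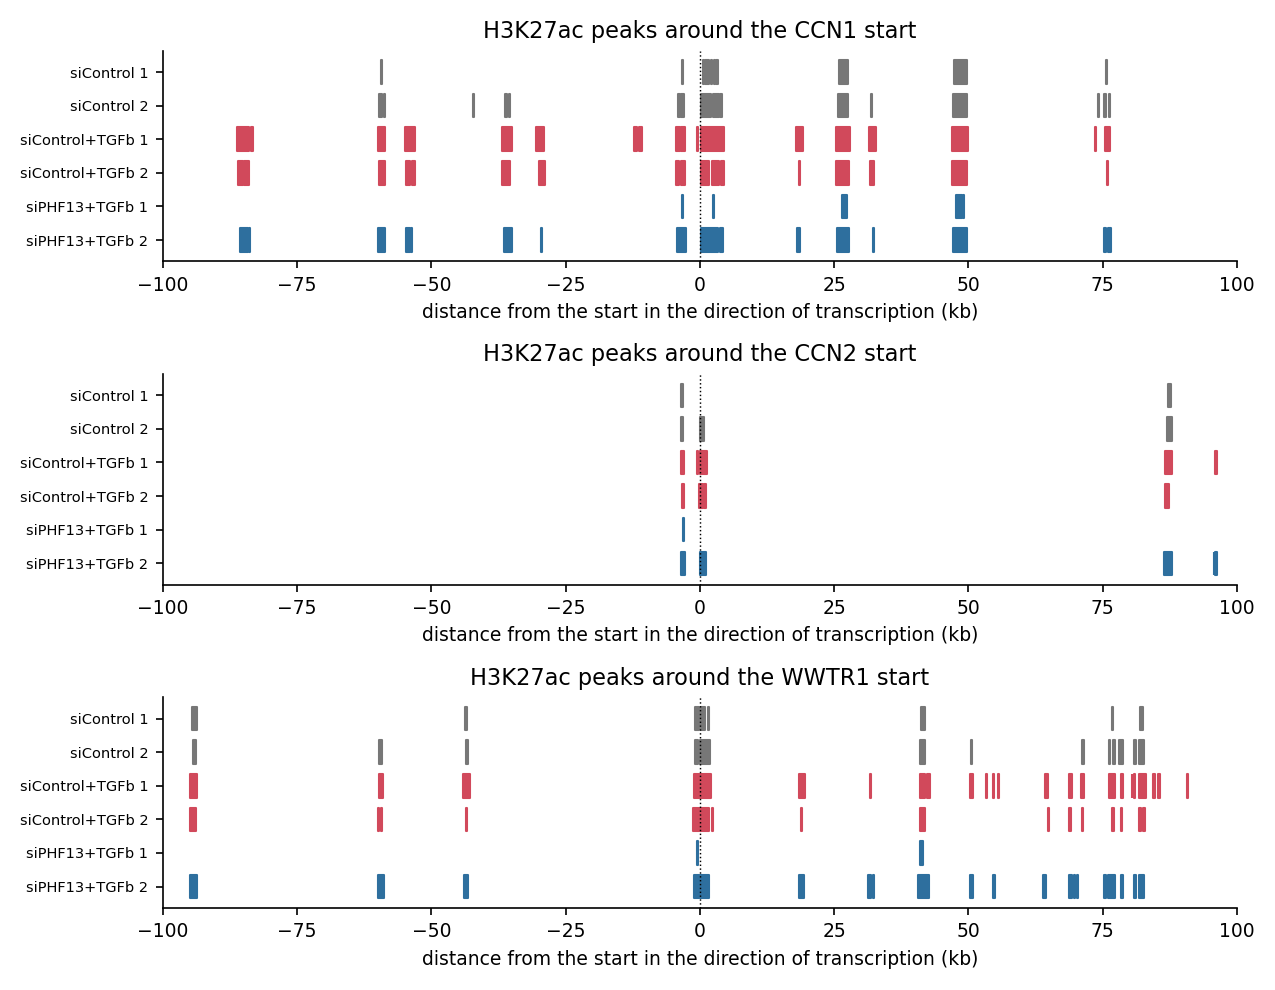
H3K27ac peaks within 100 kb of the starts of CCN1, CCN2 and WWTR1 in each of the 6 libraries, drawn by distance from the start in kb along the direction of transcription. The CCN1 regions at 27 and 48 kb downstream are present in all 6 libraries, and the region 85 kb upstream is present in both siControl+TGFb libraries and in siPHF13+TGFb replicate 2.

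At WWTR1 the widest gained region, 1131 bp at chr3:149356293-149357423, lay in an intron of WWTR1, with its centre 18364 bp from the nearest WWTR1 start. It was covered over 0 and 0 bp in siControl, against 1131 and 171 bp in siControl+TGFb and 0 and 985 bp in siPHF13+TGFb. At YAP1 the gained region, 432 bp at chr11:102096076-102096507 in an intron of YAP1, was covered over 281 and 220 bp in siControl+TGFb and 326 bp in siPHF13+TGFb replicate 2. The region gained near TEAD2, 688 bp at chr19:49946373-49947060, lay at the promoter of SLC17A7 and was covered over 567 and 422 bp, and 595 bp in siPHF13+TGFb replicate 2. The regions at WWTR1 and YAP1 were narrow in 1 or both siControl+TGFb libraries, unlike the widest at CCN1. H3K4me3 peaks overlapped these WWTR1 and TEAD2 regions in all 6 lists, the widest CCN1 region in 5 and the YAP1 region in 0.

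The summit windows of the widest gained regions at WWTR1 and CCN1 are shown because they differ in their letters. Both are 300 bases of the plus strand of GRCh37, at chr3:149356681-149356980 and chr1:85960826-85961125, with the TEAD letters in capitals.
WWTR1: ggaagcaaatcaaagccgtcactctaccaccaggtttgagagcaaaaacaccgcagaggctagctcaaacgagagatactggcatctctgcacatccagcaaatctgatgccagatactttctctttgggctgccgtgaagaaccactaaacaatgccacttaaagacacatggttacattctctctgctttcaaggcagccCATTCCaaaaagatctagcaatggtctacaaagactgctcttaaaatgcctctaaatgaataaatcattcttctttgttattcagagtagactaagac
CCN1: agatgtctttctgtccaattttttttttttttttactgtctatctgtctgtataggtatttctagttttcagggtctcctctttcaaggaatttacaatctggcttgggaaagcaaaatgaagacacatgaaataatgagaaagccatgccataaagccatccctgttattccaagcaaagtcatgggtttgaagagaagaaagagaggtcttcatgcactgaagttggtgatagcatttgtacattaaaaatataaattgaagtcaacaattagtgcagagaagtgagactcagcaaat

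The WWTR1 window held CATTCC and the CCN1 window held none of the letters searched. Over the 10 gained regions, 3 held the TEAD letters, all 3 within 100 kb of WWTR1, against 17.5% of all regions gained with TGFb. One of them lay outside WWTR1, 74208 bp from its nearest start and 26628 bp from a start of TM4SF4. The AP-1 letters were in 0 of the 10, against 11.9%. Over all 122 regions, 28 (23%) held the TEAD letters, against 15.7% of all 39923, and among distal regions 21 of 74 (28.4%) against 18.2%. The AP-1 letters were in 11.5% of the 122 against 9.71%, and in 12.2% of the distal ones against 12.8%. Median GC content was 46.8% in windows of the 122 regions and 50.7% in all windows.

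With depletion, 2 of the 122 regions (1.64%) had a peak in both siControl+TGFb libraries and in neither siPHF13+TGFb library, against 2.09% of all regions, and 0 were gained, against 0.0125%. One was in an intron of WWTR1, 429 bp at chr3:149304308-149304736, covered over 0 and 219 bp in siControl, against 429 and 169 bp in siControl+TGFb and 0 bp in both siPHF13+TGFb libraries. The other was in an intron of TEAD1, 1046 bp at chr11:12745748-12746793, covered over 169 and 0 bp, 1046 and 389 bp, and 0 bp in both. Against siPHF13+TGFb replicate 2 alone, the same 2 regions (2.09% of all regions) were lost and 12 (9.84%) were gained, against 10.3%. Lost regions numbered 43 without siPHF13+TGFb replicate 2 (39.4% of all regions), 29 without siControl+TGFb replicate 2 (19.1%) and 5 without siControl+TGFb replicate 1 (4.41%).

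Because the lists differed in length, the H3K27ac bp within 100 kb were also given per Mb of each list, a scale chosen after the data were seen. Summed over the 10 genes they were 2879 and 2896 bp per Mb in siControl, 3088 and 3212 in siControl+TGFb, and 3109 and 2988 in siPHF13+TGFb. Within 100 kb, the short list of siPHF13+TGFb replicate 1 thus gave about the same summed share of its length to these genes as the others. That sum held 1278 bp per Mb at CCN1, with 0 at TEAD3 and ANKRD1. In the TSS windows the summed share of this list was lower, at 732 bp per Mb against 907 to 1075 in the others. CCN1 stood at 612 and 670 bp per Mb in siControl, 797 and 941 in siControl+TGFb, and 1278 and 613 in siPHF13+TGFb. CCN2 stood at 71.6 and 107, 121 and 116, and 85.1 and 131. On this scale CCN1, CCN2, TEAD3 and ANKRD1 were higher with TGFb without overlap, against 17.7% of 17599 genes. TEAD4 was lower, at 283 and 275 against 182 and 246, as were 27.9% of all genes. YAP1, WWTR1, TEAD1, TEAD2 and AXL overlapped. With depletion TEAD2 was higher (6.84% of all genes) and 0 were lower (15.9%), and CCN1 was above the siControl+TGFb range in replicate 1 and below it in replicate 2. Without siPHF13+TGFb replicate 1, WWTR1, TEAD2, CCN2, ANKRD1 and AXL were higher (27.9%) and YAP1, TEAD1 and CCN1 lower (28.6%).

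**Figure D5:**
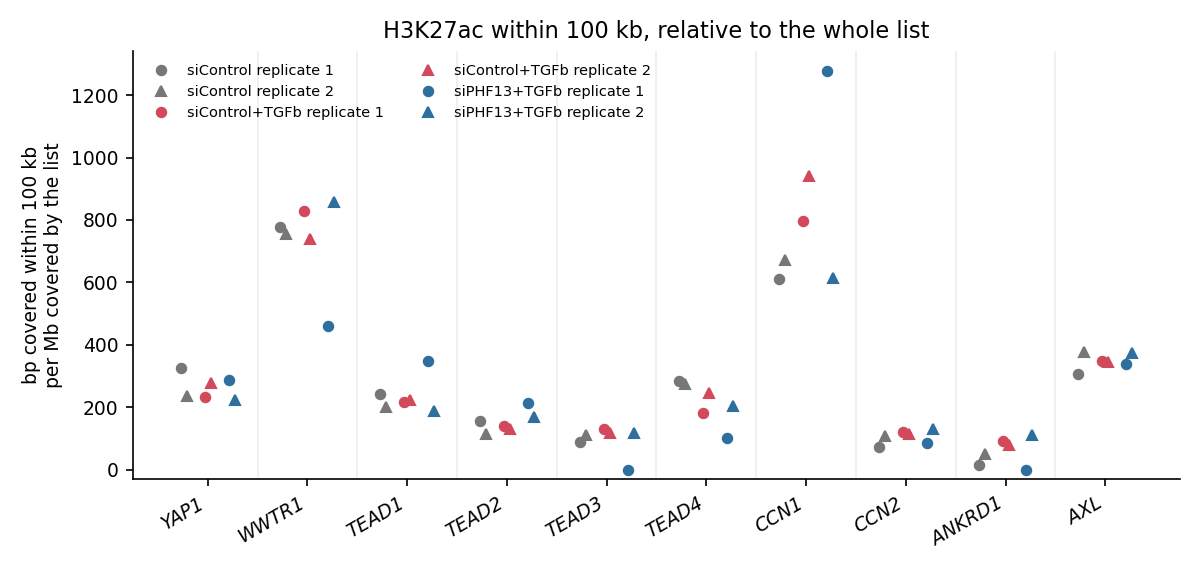
H3K27ac bp within 100 kb of each gene per Mb of the list they came from, with 1 point for each library. CCN1 lies at 612 and 670 bp per Mb in siControl and at 797 and 941 in siControl+TGFb, and TEAD4 at 283 and 275 against 182 and 246.

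In the TSS windows the same scaling moved the split of calls. With TGFb, H3K4me3 per Mb was higher without overlap at 2 of the 10 genes (ANKRD1 and AXL) and lower at 4, where bp alone gave 4 and 0. Over all genes the shares were 6.47% and 24.9%. H3K27ac per Mb was higher at TEAD3 and CCN2 and lower at WWTR1, against 12.6% and 26.9% of all genes, where bp alone gave 6 and 0. WWTR1 held 256 and 287 bp per Mb in siControl against 239 and 238 in siControl+TGFb. With depletion, H3K4me3 per Mb was higher at 6 (YAP1, CCN2 and the 4 TEAD genes) and lower at 1 (ANKRD1), against 41.8% and 6.89% of all genes, where bp alone gave 0 and 6. Without siPHF13+TGFb replicate 1 it was higher at 7 and lower at 1, against 51.9% and 14.7%. H3K27ac per Mb was higher at 0 and lower at 2 (WWTR1 and CCN1), against 3.31% and 16.0% of all genes. Without that library TEAD2 and TEAD3 were higher and WWTR1 and CCN1 lower, against 24.7% and 26.3%. The direction of the H3K4me3 counts with depletion therefore depended on the scale.

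The other genes of the pathway, from lists drawn up by function, gave similar counts. Of 15 Hippo pathway components, 14 had H3K27ac, and 9 were higher with TGFb without overlap and 0 lower, with a median difference of 0.54, where all genes gave 53.3% higher and 0.59. AMOTL2, a scaffold that holds YAP, had 857 and 890 bp in siControl, against 2115 and 1853 bp in siControl+TGFb and 0 and 1904 bp in siPHF13+TGFb. WWC1 (KIBRA), an upstream activator of the LATS kinases, had 0 and 0 bp, then 1484 and 447 bp, then 0 and 622 bp. NF2, the membrane-linked tumour suppressor upstream of LATS, had 1152 and 1333 bp, then 2160 and 1631 bp, then 0 and 1534 bp. At these 3 genes both siControl+TGFb libraries lay above both siControl libraries, as they did at FRMD6 (1117 and 2085 bp against 2671 and 2138 bp) and the kinase gene LATS2 (685 and 1016 bp against 1740 and 1245 bp).

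Of 4 VGLL genes, whose products compete with YAP for TEAD, 2 had H3K27ac, and VGLL4 was higher with TGFb, at 4021 and 7065 bp in siControl, against 12249 and 7132 bp in siControl+TGFb and 534 and 11369 bp in siPHF13+TGFb. Of 18 other YAP target genes, 15 had H3K27ac, and 10 were higher and 0 lower, with a median of 0.82. TGFB2, a TGFb ligand, had 189 and 0 bp in siControl, against 2119 and 1340 bp in siControl+TGFb and 0 and 1523 bp in siPHF13+TGFb. CRIM1, a cysteine-rich membrane protein, had 254 and 1390 bp, then 2743 and 1551 bp, then 0 and 2162 bp. GADD45A, a stress-response gene, had 1550 and 1661 bp, then 2930 and 2107 bp, then 0 and 2413 bp. At VGLL4 and these 3 target genes siPHF13+TGFb replicate 2 was within the siControl+TGFb range and replicate 1 below it. With depletion 3 Hippo components, 0 VGLL genes and 3 target genes were lower in H3K27ac without overlap, where 10.0% of all genes were, and 0 were higher. With siPHF13+TGFb replicate 2 alone the same counts of 3, 0 and 3 were lower, and 2, 1 and 3 were higher, against 10.0% and 29.3% of all genes. For H3K4me3, 10 of 15 Hippo components, 3 of the 3 VGLL genes with a peak and 7 of 18 target genes were higher with TGFb, where 46.5% of all genes were, and 10, 2 and 10 were lower with depletion, where 60.7% were, with 0 the other way. Without siPHF13+TGFb replicate 1 the same counts of 10, 2 and 10 were lower and 1, 0 and 1 higher, against 62.1% and 10.4% of all genes. Limma called 0 genes of these lists for either mark in either comparison (smallest adjusted p = 0.416). AMOTL2, LATS2 and PTPN14 stand in both the Hippo and the target list.

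Across the 18 lists, the genes with the most similar windows were SYTL2, GSN and RHOF for CCN1, at Euclidean distances of 0.66, 0.72 and 0.74 on the log2(bp + 100) scale, where the median over all genes was 9.68. For CCN2 they were PITPNM2, KAT6B and WDFY2, at 0.49, 0.74 and 0.78, with a median of 6.89.

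The repressive mark was found at 1 of the 10 genes. H3K27me3 was at 0 bp in all 6 lists at 9 of the 10 genes, YAP1 and the 4 target genes among them, as it was at 52.6% of all 19794 genes. TEAD3 was the exception, with 1492 and 929 bp in siControl, against 1987 and 2248 bp in siControl+TGFb and 0 and 531 bp in siPHF13+TGFb. It was higher with TGFb without overlap, against 5.62% of 9384 genes, and lower with depletion, against 25.6%, also with replicate 2 alone. Limma gave differences of 0.79 and -3.14 with adjusted p = 1.0 and 0.884, and called 0 of the 9384 genes in either comparison (168 and 203 genes at an unadjusted p under 0.05). With siPHF13+TGFb replicate 1, at 0 bp, left out, the depletion difference was -1.81. When windows reached only 2.5 kb to each side, the difference with TGFb was -0.12.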

How the data were processed

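Chromatin immunoprecipitation sequencing of H3K4me3, H3K27ac and H3K27me3 in PANC-1 cells gave 18 peak lists, and 6 input samples were not used here. The authors trimmed reads with Trim Galore 0.4.1, aligned them to hg19 with Bowtie2 2.4.1, removed duplicates with Picard and called peaks in each library with MACS2 2.2.7.1. For H3K4me3 and H3K27ac the study states a cutoff equal to a −log10 q of 3. The deposited lists of these marks reach down to about 1.30, and the main counts use all their peaks. Each deposited list gives positions, a score, a fold enrichment ratio, a −log10 p-value and a −log10 q-value, and the score, fold and −log10 p-value columns were not used. The lists hold no read counts, so depth is unknown. For siPHF13+TGFb replicate 1 in all 3 marks and for H3K27me3 siControl replicate 1, the study's own peak totals are higher than the deposited lists.

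Covered bp were summed within 5 kb of GENCODE protein-coding starts and fitted as log2(bp + 100) with limma 3.58.1 in R 4.3.3 over all genes with a peak of the mark, with Benjamini-Hochberg adjustment and a threshold of 0.05. Groups were taken from the labels. Sequences were read from the GRCh37 genome at the positions given. Intervals and fits were tested on simulated data. The simulated fits had less noise than these lists and no short list, so they do not measure what the fit can detect here. Regions counted as gained or lost had a peak in both libraries of 1 group and in neither of the other. The genes and lists were chosen with earlier results of these data known. All 10 genes are named. Of each pathway list, up to 5 non-overlapping genes with the largest H3K27ac difference with TGFb, the widest gained and lost region of each gene, and the 3 nearest profiles of CCN1 and CCN2 are named as well, apart from 1 pathway gene that is not reported here. The further gained and standing regions of CCN1 were chosen after their values were seen. Alternatives were lists of equal length, a −log10 q of at least 3, windows of 2.5 kb, all transcripts' starts, a pseudocount of 10, median centring, no filter, a replicate block, regions within 50 kb or at least 50% covered, and each library left out, with bp per Mb of list added after seeing the data. Scripts used Python 3.11.15, NumPy 2.4.6, pandas 2.3.3 and Matplotlib 3.10.9.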

Additional observations from a re-analysis of the deposited data

How the results depend on the processing

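Of the single H3K27ac differences, those with TGFb kept their sign under each alternative other than centring and the scaling per Mb of list. With centring, YAP1 was -0.40 and TEAD4 -0.11. Per Mb in the TSS windows, a scale chosen after seeing the data, the siControl+TGFb means of YAP1, WWTR1, TEAD4 and CCN1 lay below the siControl means. In these windows and on that scale, the genes higher with TGFb numbered 2 for H3K4me3 and 2 for H3K27ac, and those lower with depletion 1 and 2. With depletion, centring reversed YAP1 (0.61), TEAD2 (0.77), TEAD3 (0.31), TEAD4 (0.48), CCN2 (0.44) and AXL (0.060), lists of equal length reversed CCN1 (1.04) and CCN2 (0.69), and leaving out 1 library gave -4.25 to 0.15 at TEAD1, -2.99 to 0.88 at TEAD2, -3.50 to 0.47 at TEAD3, -2.75 to 0.070 at TEAD4, -3.66 to 0.012 at CCN1, -2.86 to 0.10 at CCN2 and -4.35 to 0.83 at AXL. The positive ends are without siPHF13+TGFb replicate 1. Lists of equal length were cut to the shortest list of each mark and leave fewer genes with a peak. The cause of the other changes was not tested.

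The ANKRD1 call for H3K4me3 was lost with lists of equal length, with a −log10 q of at least 3 and with the replicate block, which gave 0 genes called in both comparisons (adjusted p = 0.131 and 0.128 by limma). Libraries with the same number deviated together between siControl and siPHF13+TGFb in the 3 marks (correlations from 0.15 to 0.49 over genes) but not in the other pairs of groups (-0.34 to 0.035), so the numbers were not taken as a pairing. The block changed no other call. Leaving out 1 library gave 0 to 1 called. H3K4me3 members lower with depletion numbered 3 with lists of equal length, 2 with centring and 6 to 10 with a library left out, and those higher with TGFb 5 to 9. H3K27ac members higher with TGFb numbered 3 with equal length and 3 with centring. With depletion the H3K27ac median was 0.31 with centring and -3.50 to 0.10 with a library left out, with 1 to 9 lower and 0 to 7 called, and equal length gave 3 lower.

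At TEAD3, the H3K27me3 difference with TGFb was -1.40 with equal length and -0.12 with windows of 2.5 kb, and it was counted as higher (0 genes) under neither of them nor with a −log10 q of at least 3 or centring. With depletion it was -0.95 with equal length, -4.85 with a pseudocount of 10, -1.70 with centring and -4.47 to -1.81 with a library left out, and the median over all 10 genes was 0 with no filter. It was counted as lower (0 genes) neither with equal length nor with a −log10 q of at least 3, which left TEAD3 no peak. Regions gained with TGFb numbered 2 with equal length, 16 when peaks had to cover 50% of a region, 6 within 50 kb and 11 to 48 with a library left out. Regions lost with TGFb numbered 2 with equal length and 0 to 3, regions gained with depletion 0 to 12 and regions lost with depletion 2 to 43.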
